A study of Homo sapiens with 12 samples.

Results

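CCND1, MYC, FOSL1 and JUN encode proteins that push cells through growth and division, and their transcripts were followed here through inhibition of BRAF and MEK, inhibition of histone deacetylases, and both at once. The genes were chosen by symbol. Each had 1 row in the array table, so that 4 of 14599 named genes are described. Expression was measured on 12 single-colour Affymetrix arrays in Hs695T, an established human melanoma cell line, 24 h after treatment. The DTE group received 100 nM dabrafenib, 10 nM trametinib and 1 µM entinostat. The DT group received 100 nM dabrafenib, an inhibitor of BRAF, with 10 nM trametinib, an inhibitor of MEK. The E group received 1 µM entinostat, which inhibits class I histone deacetylases, and the DMSO group received vehicle. Each group had 3 arrays, which the sample titles number as biological replicates and the series description calls technical. Every p-value therefore measures the spread between these arrays, which may be technical, and all arrays come from 1 line.

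In melanoma cells with an active BRAF and MEK pathway, the kinase ERK drives transcription of growth genes. Cyclin D1, the product of CCND1, binds the kinases CDK4 and CDK6, which phosphorylate the RB protein and release E2F factors for entry into S phase. MYC is a transcription factor that pairs with MAX and raises genes of ribosome building and metabolism. FOSL1 (also called FRA1) and JUN are leucine zipper proteins of the AP-1 family, which bind DNA as dimers, and a FOS-family protein such as FOSL1 needs a JUN-family partner to do so. ERK signalling raises FOSL1 transcription and stabilises its protein, whereas JUN is activated chiefly by the JUN kinases and acts on its own promoter.

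Signal fell over most of the array when BRAF and MEK were inhibited, and every change below has to be read against that. Median intensity per array lay between 33.3 and 39.9 in DTE, between 37.5 and 40.8 in DT, between 48.3 and 51.6 in E and between 50.6 and 57.6 in DMSO. The median log2 change of all named genes against DMSO was -0.72 in DTE, -0.48 in DT and -0.20 in E. After quantile normalization of the same log2 values it was -0.04 in DTE, 0.00 in DT and -0.04 in E. Changes below are log2 differences of deposited intensities ± the limma standard error with 3 arrays per group, and "quantile" marks the same difference after quantile normalization. The words rose and fell are kept for genes with a limma adjusted p under 0.05 on the deposited scale. The sources used here do not give the scaling between arrays, and which scale is nearer to the amount of RNA per cell was not tested. The melanoma identity of the line was visible in SOX10 (419 to 1081 intensity units over the 12 arrays) and S100B (853 to 2953), but MLANA stayed between 13.3 and 20.9, TYR between 10.8 and 16.9 and TYRP1 between 7.82 and 13.7. The fibroblast markers DCN and LUM, 2 of 6 listed, stayed between 4.74 and 7.41. The summed intensity of 9 of 10 melanocyte markers was 1612 to 1635 in DTE, 1816 to 2146 in DT, 2693 to 2922 in E and 3917 to 4356 in DMSO. That of 4 of 8 immune markers was 346 to 369 in DTE, 273 to 312 in DT, 482 to 611 in E and 483 to 527 in DMSO. For 5 of 7 epithelial markers it was 225 to 282 in DTE, 202 to 224 in DT, 398 to 447 in E and 360 to 413 in DMSO. For 2 of 5 endothelial markers it was 126 to 150 in DTE, 69.5 to 88.9 in DT, 690 to 725 in E and 402 to 462 in DMSO. Over the 12 arrays KDR ran from 44.3 to 697 and VWF from 20.8 to 38.3. Against DMSO, KDR rose by 0.79 with E and VWF differed by -0.20 (adjusted p = 0.18). Of the 9 melanocyte markers, PMEL and EDNRB rose with E and 3 fell, and S100B and SOX10 were the brightest. The part of the marker genes in the results was not tested.

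CCND1 fell with DTE and with DT, and did not pass the test with entinostat alone. Its intensity was 147, 183 and 154 on the DTE arrays and 156, 151 and 141 on the DT arrays. On the E arrays it was 797, 910 and 801, and on the DMSO arrays 1012, 904 and 967. All 6 arrays with BRAF and MEK inhibitors thus lay far below all 6 without them, while the E and DMSO arrays overlapped. Against DMSO, CCND1 fell by 2.58 ± 0.11 with DTE, a 5.97-fold drop (adjusted p = 1.6e-11, quantile -1.35). With DT it fell by 2.69 ± 0.11, a 6.44-fold drop to 15.5% of the DMSO level (adjusted p = 2.4e-11, quantile -1.94). The E arrays differed from DMSO by -0.20 with a 95% interval of -0.43 to 0.03 (adjusted p = 0.14, quantile 0.15).

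No further fall of CCND1 was detected when entinostat was added to the inhibitors. DTE differed from DT by 0.11 with a 95% interval of -0.12 to 0.34 (adjusted p = 0.44), and the arrays of the groups overlapped. On the quantile scale DTE was above DT by 0.60 ± 0.08 (adjusted p = 3.9e-05). With the inhibitors added to entinostat (DTE minus E), CCND1 fell by 2.38 ± 0.11 (adjusted p = 3.3e-10, quantile -1.50). For DT minus E it fell by 2.49 ± 0.11 (adjusted p = 4.4e-11, quantile -2.09). In order of level, DTE and DT stood at the bottom and differed by the test only after quantile normalization, and E and DMSO stood at the top and did not differ by the test on either scale.

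MYC followed the same order with smaller steps. Its intensity was 62.2, 74.0 and 59.6 with DTE and 58.7, 62.4 and 50.4 with DT. It was 150, 180 and 170 with E, against 179, 156 and 197 in DMSO. The arrays with BRAF and MEK inhibitors again formed the low group, without overlap with the others, and E overlapped DMSO. MYC fell by 1.44 ± 0.13 with DTE, to 36.9% of the DMSO level (adjusted p = 2.5e-08, quantile -0.41), and by 1.63 ± 0.13 with DT, to 32.3% (adjusted p = 2.3e-08, quantile -0.93). With E the difference was -0.09, with a 95% interval of -0.36 to 0.18 (adjusted p = 0.61), and 0.26 higher on the quantile scale, where it passed (adjusted p = 0.038). DTE minus DT was 0.19 with an interval of -0.08 to 0.46 (adjusted p = 0.24) and passed as 0.53 higher on the quantile scale (adjusted p = 0.00039). MYC fell by 1.35 ± 0.13 in DTE compared with E (adjusted p = 2.3e-07, quantile -0.66) and by 1.54 ± 0.13 in DT compared with E (adjusted p = 4.6e-08, quantile -1.19).

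FOSL1 was the only one of the 4 that fell with each treatment, and the order of its groups had no ties. Its intensity was 31.7, 24.3 and 35.3 with DTE, 53.5, 65.5 and 52.4 with DT, 190, 254 and 253 with E, and 738, 690 and 826 in DMSO. No group overlapped another, and the levels ascended through DTE, DT, E and DMSO. It fell by 4.64 ± 0.15 with DTE, a 24.9-fold drop to 4.01% of the DMSO level (adjusted p = 1.8e-12, quantile -3.78). With DT it fell by 3.72 ± 0.15, a 13.2-fold drop (adjusted p = 2.4e-11, quantile -2.95). With entinostat alone it fell by 1.70 ± 0.15, a 3.25-fold drop to 30.7% (adjusted p = 2.5e-07, quantile -1.31).

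For FOSL1 each neighbouring pair of groups passed the test on both scales. For DTE minus DT it fell by 0.92 ± 0.15 (adjusted p = 9.8e-05, quantile -0.82). For DTE minus E it fell by 2.94 ± 0.15 (adjusted p = 9.5e-10, quantile -2.47), and for DT minus E it fell by 2.02 ± 0.15 (adjusted p = 1.8e-08, quantile -1.65). Of all named genes, 0.0137% had a lower change than FOSL1 with DTE, 0.0685% with DT and 0.253% with E.

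JUN moved little on the deposited scale beside its AP-1 partner FOSL1. Its intensity was 205, 224 and 223 with DTE, 268, 292 and 283 with DT, 336, 298 and 374 with E, and 259, 249.8 and 263 in DMSO. All 4 groups were separate, with E highest and DTE lowest, and their mean log2 intensities were 7.76 in DTE, 8.13 in DT, 8.39 in E and 8.01 in DMSO. JUN rose by 0.38 ± 0.10 with E, a 1.30-fold increase (adjusted p = 0.0062, quantile 0.75). With DT it differed from DMSO by 0.12 (95% interval -0.095 to 0.34, adjusted p = 0.29), although the 3 DT arrays lay above the 3 DMSO arrays, and on the quantile scale it was 0.91 higher (adjusted p = 1.4e-05).

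The sign of the JUN change with DTE depended on how the arrays were scaled. On the deposited scale JUN fell by 0.24 ± 0.10 with DTE (adjusted p = 0.041), whereas after quantile normalization it was 1.02 higher (adjusted p = 2.9e-06). The deposited-scale call was lost without DTE array 1 or 3, DT array 2, E array 1, or DMSO array 1 or 3, with changes of -0.27 to -0.20 and an adjusted p of up to 0.14 over the 12 arrays left out in turn. Compared with DT, JUN fell by 0.37 ± 0.10 in DTE (adjusted p = 0.0071), but the quantile difference was 0.11 and did not pass (adjusted p = 0.42). Compared with E it fell by 0.62 ± 0.10 in DTE (adjusted p = 6.1e-05), with a quantile difference of 0.27 that did not pass (adjusted p = 0.069). DT minus E was -0.25 with a 95% interval of -0.47 to -0.03 and an adjusted p of 0.055 (quantile 0.16).

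**Figure D1:**
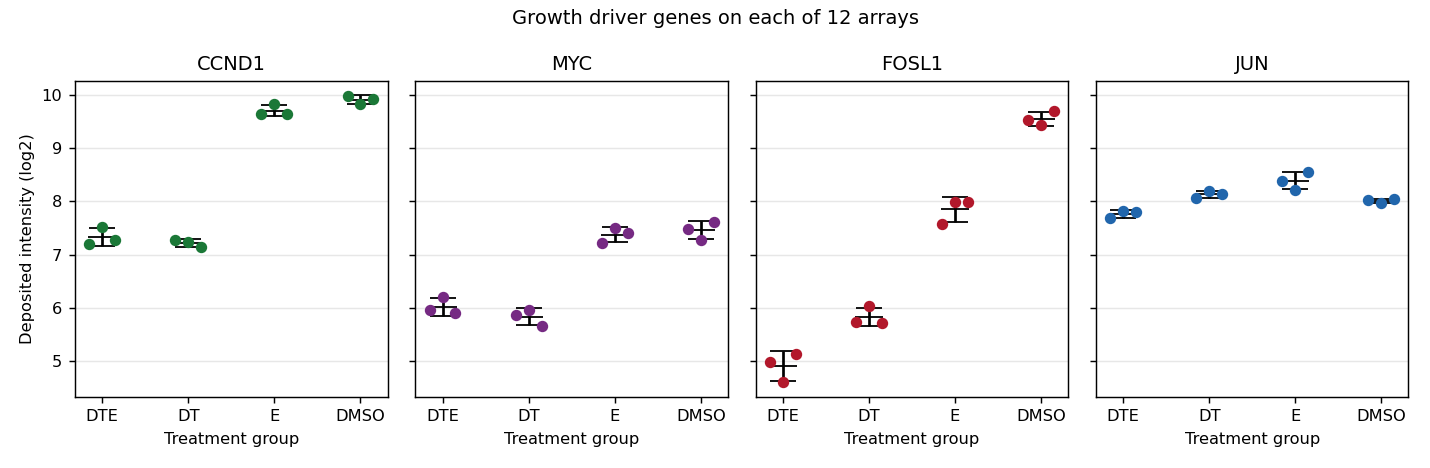
Deposited intensity (log2, vertical axis) of each gene on each array (points), with the group mean and SD of 3 arrays (bars), for DTE, DT, E and DMSO from left to right. CCND1 and MYC form a low pair (DTE, DT) and a high pair (E, DMSO), FOSL1 steps down in every group, and the JUN groups lie close together.

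JUN is the one gene of the 4 with an entry in the RefSeq promoter table used here, and its promoter is shown because JUN protein, paired with ATF2, is known to bind AP-1-like elements there. The 250 bases before the JUN start lie on the minus strand at chr1:58784048-58784297 (GRCh38.p14) and are written 5′ to 3′ in the direction of transcription. Capitals mark TTACCTCA, the distal element, and TGACATCA, the proximal one.

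JUN promoter: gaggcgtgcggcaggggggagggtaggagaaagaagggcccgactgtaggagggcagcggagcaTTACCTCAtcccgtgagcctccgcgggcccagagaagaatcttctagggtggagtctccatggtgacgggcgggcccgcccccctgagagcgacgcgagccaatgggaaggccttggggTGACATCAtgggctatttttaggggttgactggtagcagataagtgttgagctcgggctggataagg

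Counted back from the start, the proximal element occupies bases -67 to -60 and the distal one bases -186 to -179. On either strand, TGACATCA occurs in 2.37% and TTACCTCA in 0.644% of 35116 human promoter windows of this length. The window also holds 1 CCAAT (32% of windows), 1 TATTTTTA, the core of a MEF2 element (2.09%), and 2 matches to GGGCGG, the GC box (42.6%). The canonical AP-1 site TGACTCA (4.2% of windows), the cyclic AMP element TGACGTCA (1.65%) and CACGTG, the site of MYC and MAX (6.34%), have no match in these letters. These are matches of letters and say nothing about binding in these cells.

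A large share of all named genes passed the same tests. With DTE all 4 genes passed, where 78.6% of named genes passed in either direction, 74.3% lower and 4.38% higher. With DT 3 of 4 passed, all lower, where 69.1% passed, 66.2% lower and 2.97% higher. With E 1 of 4 fell and 1 rose, where 47.5% passed, 37.2% lower and 10.4% higher. On the quantile scale all 4 passed with DTE (46.6% of named genes, and JUN was among the 21% that were higher), all 4 with DT (28.9%) and 3 of 4 with E (39.6%). Arrays did not overlap between groups for 4 of 4 genes with DTE (76.8% of named genes), 4 of 4 with DT (71.1%) and 2 of 4 with E (55.4%).

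The other comparisons are set beside the shares of all named genes in the same way. Of the 4 genes, 2 passed for DTE minus DT (49.3% of named genes) and 4 for DTE minus E (73.3%). For DT minus E, 3 passed (46.7%). On the quantile scale 3 passed for DTE minus DT (43.6%), with CCND1 and MYC among the 19.6% that were higher. Also on that scale 3 passed for DTE minus E (23%) and 3 for DT minus E (44.8%). The comparisons with DMSO share the 3 DMSO arrays, and those with DTE share the 3 DTE arrays.

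Genes were also divided into 10 equal bins by mean intensity, so that each of the 4 could be set beside genes of like brightness. With DTE the median change was -1.19 in the brightest bin and -0.04 in the dimmest. With DTE the log2 change minus the median of the bin was -1.39 for CCND1, -0.30 for MYC, -3.37 for FOSL1 and 1.08 for JUN. With DT it was -1.95 for CCND1, -0.96 for MYC, -2.96 for FOSL1 and 0.90 for JUN. With E it was 0.17 for CCND1, 0.33 for MYC, -1.26 for FOSL1 and 0.83 for JUN. In the JUN bin, 93.6% of genes had a lower change than JUN with DTE, 95.8% with DT and 91.4% with E. In the MYC bin 27.4% of genes had a lower change than MYC with DTE, against 4.52% with DT.

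**Figure D2:**
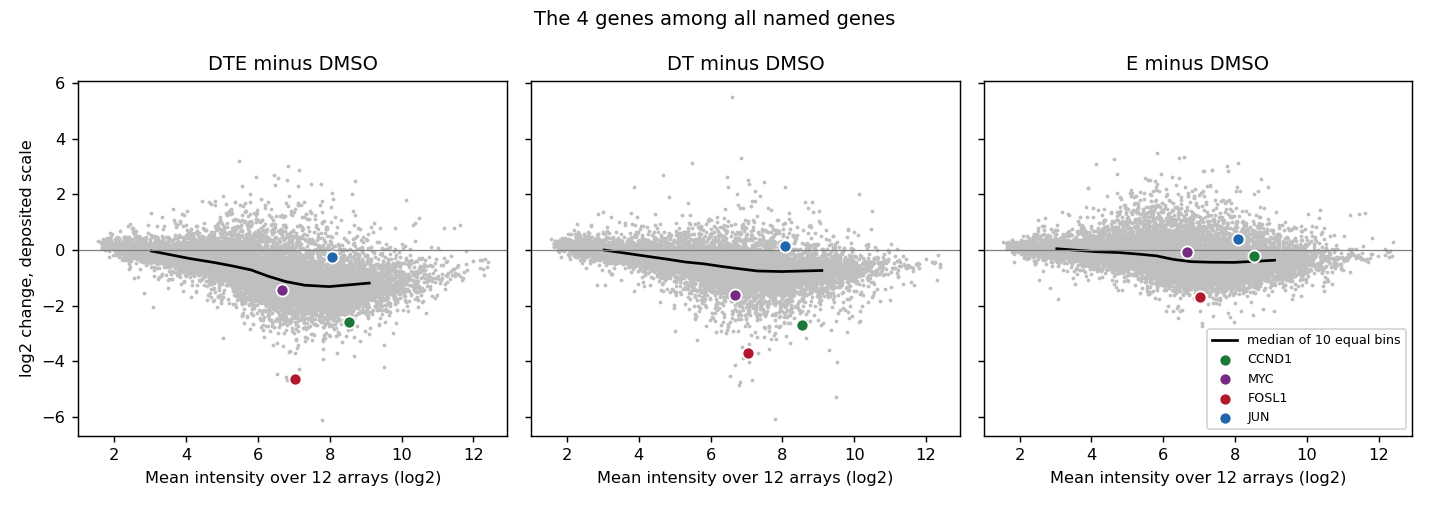
Change against DMSO on the deposited scale (log2, vertical axis) by mean intensity over 12 arrays (log2, horizontal axis) for DTE, DT and E, with all named genes in grey, the median of 10 equal bins as a line and the 4 genes in colour. FOSL1 sits at the lower edge in all 3 panels and JUN stays above the line.

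A difference between 2 genes on the same array is not moved by a factor common to the whole array, and such differences were compared for 6 pairs of genes in 6 comparisons. The shift with DTE was not one common factor, since its median was -1.19 in the brightest bin and -0.04 in the dimmest. A shift that depends on brightness can therefore remain in these differences. The log2 change of FOSL1 minus that of JUN was -4.39 with DTE (quantile -4.80), -3.85 with DT (quantile -3.87) and -2.08 with E (quantile -2.06). The change of CCND1 minus that of FOSL1 was 2.06 with DTE (quantile 2.43) and 1.03 with DT (quantile 1.01). The change of CCND1 minus that of MYC was -1.14 with DTE (quantile -0.94) and -1.06 with DT (quantile -1.01). In 34 of the 36 cases the arrays of the groups did not overlap, and the exceptions were CCND1 with MYC for E minus DMSO (-0.11) and for DTE minus DT (-0.08). The share among other pairs of genes was not computed, so this count has no background. Among single named genes, arrays already did not overlap with DMSO for 76.8% with DTE, 71.1% with DT and 55.4% with E. The two-sided exact permutation p was 0.1 in each of those 34, which is the smallest that 3 against 3 arrays can give, and 0.3 in the other two. After adjustment over the 36 it was 0.106 and 0.3.

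**Figure D3:**
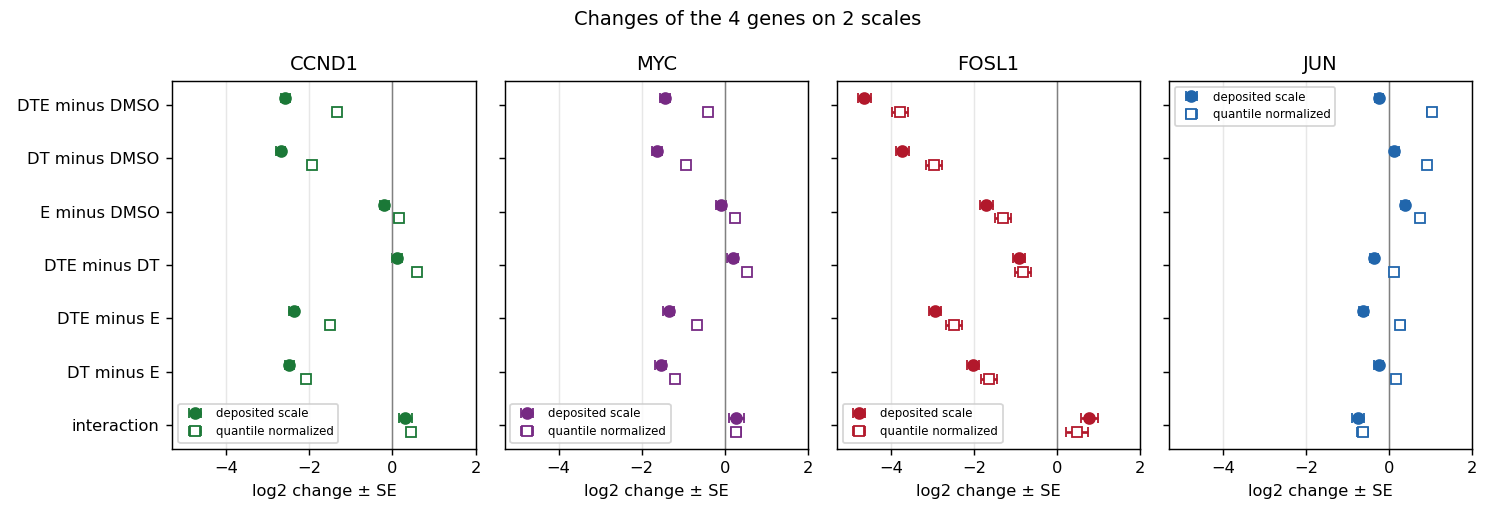
Log2 change ± limma SE (horizontal axis) of each gene in 7 comparisons, on the deposited scale (filled circles) and after quantile normalization (open squares). The last row is the interaction, (DTE minus DT) minus (E minus DMSO), and JUN with DTE is the one point of the 3 comparisons with DMSO that passed on the deposited scale and changes side.

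The interaction asked whether the effect of entinostat was the same with and without the BRAF and MEK inhibitors. JUN was lower with DTE than the sum of the single changes by 0.75 ± 0.15 (interaction -0.75, adjusted p = 0.0038), and this held on the quantile scale (-0.64, adjusted p = 0.0095). The single changes added up to a log2 level of 8.51 for JUN in DTE, against 7.76 measured. FOSL1 went the other way: its measured level in DTE was 4.91, against 4.13 for the sum, an interaction of 0.78 ± 0.22 (adjusted p = 0.033). The quantile value for FOSL1 was 0.48 and did not pass (adjusted p = 0.29), and the deposited-scale call was lost without DTE array 1 or 3, DT array 1 or 3, E array 1, or DMSO array 1 or 3 (0.65 to 0.94, adjusted p up to 0.093). A level of 4.13 corresponds to an intensity of 17.5, below which 17.9% of named genes lay in DTE. The part of low signal in the FOSL1 value was not tested.

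CCND1 and MYC did not pass for the interaction on the deposited scale. The value was 0.31 with a 95% interval of -0.02 to 0.64 for CCND1 (adjusted p = 0.27) and 0.28 with an interval of -0.10 to 0.66 for MYC (adjusted p = 0.42). On the quantile scale CCND1 passed at 0.44 (adjusted p = 0.017), and MYC did not at 0.27 (adjusted p = 0.2). In total 2 of 4 genes passed, where 8% of named genes did, and 2 of 4 passed on the quantile scale, where 12.5% did.

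**Figure D4:**
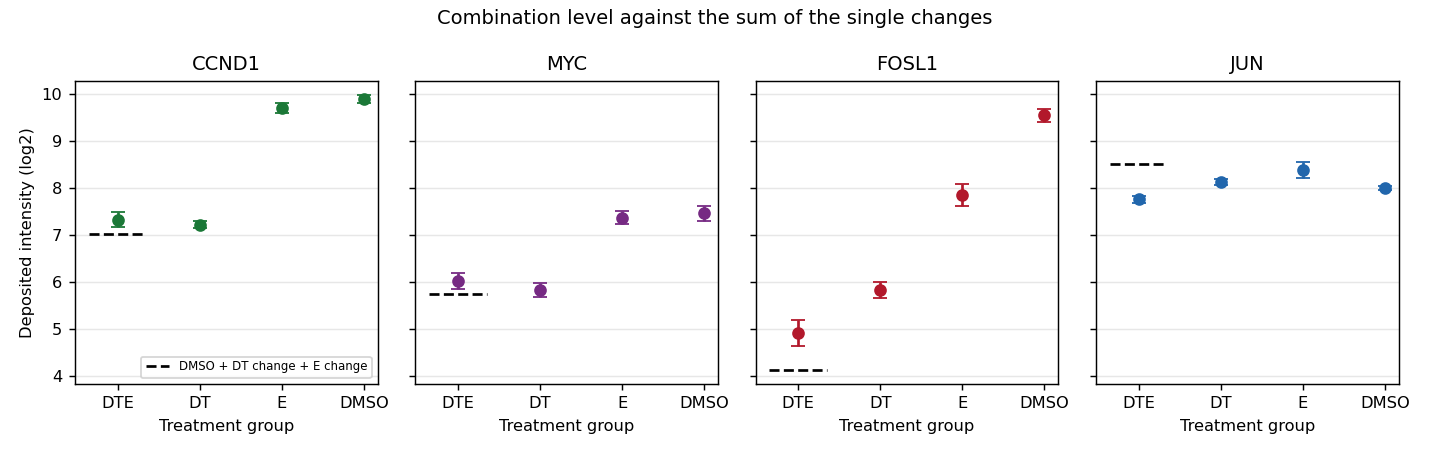
Group means ± SD of 3 arrays (deposited intensity, log2) for DTE, DT, E and DMSO, with a dashed line at the DTE level that the DMSO mean plus the separate DT and E changes would give. The DTE mean of FOSL1 (4.91) lies above its line (4.13) and that of JUN (7.76) below its line (8.51).

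The lists that follow are to be read against the share of all named genes called lower on the deposited scale, which was 74.3% with DTE, 66.2% with DT and 37.2% with E. Counts on the quantile scale have another background, where 46.6% passed in either direction with DTE, 28.9% with DT and 39.6% with E. Against DMSO, the one share by direction given on that scale is the 21% higher with DTE. Among the AP-1 subunits, FOSL1 had the lowest change in each comparison with DMSO. Of 10 measured of 14 listed subunits, 1 rose and 7 fell with DTE (median -0.42), 1 rose and 5 fell with DT (median -0.31), and 5 rose and 2 fell with E (median 0.17). On the quantile scale 7 were higher and FOSL1 was the 1 that was lower with DTE (median 0.71), and 5 were higher and FOSL1 the 1 lower with DT (median 0.30). With E, 6 were higher and FOSL1 again the 1 lower (median 0.45). FOSL2, the nearest relative of FOSL1, rose with DTE (0.36 ± 0.13, adjusted p = 0.018, quantile 1.54) and with E (0.40 ± 0.13, adjusted p = 0.017, quantile 0.71). It differed by 0.18 ± 0.13 with DT (adjusted p = 0.22, quantile 0.87). The FOSL2 call with DTE was lost without DTE array 2 (adjusted p = 0.064) or DMSO array 2 (adjusted p = 0.092), and that with E without E array 2 (adjusted p = 0.079) or DMSO array 2 (adjusted p = 0.084). JUNB, a second JUN-family protein, rose with E (0.40 ± 0.13, adjusted p = 0.014, quantile 0.78) and fell by 0.30 ± 0.13 with DTE (adjusted p = 0.041), where the quantile value was 0.97 higher. The JUNB call with E was lost without E array 3 (adjusted p = 0.067) or DMSO array 2 (adjusted p = 0.069). That with DTE was lost without DTE array 1 or 3, DT array 2, or DMSO array 1 or 3 (-0.30 to -0.22, adjusted p up to 0.16).

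FOS, the founding member of the family, was highest with DT. Its log2 intensity averaged 6.61 ± 0.18 in DTE, 7.43 ± 0.07 in DT, 7.17 ± 0.02 in E and 6.62 ± 0.21 in DMSO (SD, n = 3 each). It rose with DT (0.81 ± 0.12, adjusted p = 2.4e-05, quantile 1.39) and with E (0.55 ± 0.12, adjusted p = 0.0012, quantile 0.77). With DTE it differed from DMSO by -0.02 ± 0.12 (adjusted p = 0.89), and by 0.98 on the quantile scale. Its interaction was -1.37 ± 0.17 (adjusted p = 0.00011, quantile -1.18). Of the 10 subunits, FOS and JUN were the 2 that passed below 0 for the interaction on both scales.

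Genes of the kinase cascade that acts on JUN fell at a share near that of all named genes with DTE (74.3%) and DT (66.2%). Of 11 measured genes of the JUN kinase cascade and its phosphatases, 1 rose and 9 fell with DTE (median -1.12, quantile 0.01 with 3 higher and 4 lower). With DT 9 fell (median -0.85), while on the quantile scale 1 was higher, 2 were lower and 8 did not pass (median -0.11). With E 2 rose and 5 fell (median -0.40, quantile -0.21). MAP3K5 (ASK1), an upstream kinase, fell by 2.72 ± 0.10 with DTE (quantile -1.54), by 1.41 ± 0.10 with DT (quantile -0.61) and by 1.47 ± 0.10 with E (quantile -1.05). DUSP10, a phosphatase of the JUN and p38 kinases, rose with DTE (0.74 ± 0.10, quantile 1.91) and with E (1.70 ± 0.10, quantile 1.98).

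Genes often used as AP-1 targets included rises and falls in each comparison with DMSO. Of 10 measured, 3 rose and 7 fell with DTE (median -0.55, quantile 0.18), 1 rose and 7 fell with DT (median -0.47, quantile -0.11), and 6 rose and 2 fell with E (median 0.57, quantile 0.96). The counts that fell with DTE and DT are near the shares of all named genes that fell, 74.3% and 66.2%. CD44, a hyaluronan receptor, fell by 1.55 ± 0.12 with DTE (quantile -0.26) and by 1.62 ± 0.12 with DT (quantile -0.82). AXL, a receptor tyrosine kinase, fell by 1.41 ± 0.11 with DTE (quantile -0.37) and with DT it fell by 1.49 ± 0.11 (quantile -0.79). CCN2, a matricellular protein, rose in all 3 comparisons: 1.14 ± 0.10 with DTE, 1.41 ± 0.10 with DT and 0.78 ± 0.10 with E.

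Entinostat raised several collagenase and chemokine genes of that list while FOSL1 fell. MMP13 rose by 3.10 ± 0.21 with E (adjusted p = 1.7e-08) and by 0.60 ± 0.21 with DTE (adjusted p = 0.017). The call with DTE was lost without DTE array 2 (0.46, adjusted p = 0.071) or DMSO array 3 (0.27, adjusted p = 0.12). MMP1 rose by 1.31 ± 0.11 and CXCL8 by 2.24 ± 0.16 with E. With DTE, MMP1 fell by 0.50 ± 0.11 (adjusted p = 0.00076) and CXCL8 fell by 0.38 ± 0.16 (adjusted p = 0.042). Neither fall passed on the quantile scale (-0.15 and -0.26). For these 3 the interaction was negative and passed on both scales. It was -2.13 ± 0.30 for MMP13, -1.50 ± 0.16 for MMP1 and -2.40 ± 0.23 for CXCL8. All 3 genes were dim. Their mean log2 intensity over all arrays was 4.11 for MMP13, 4.76 for MMP1 and 3.92 for CXCL8. That of MLANA was 4.04 and that of TYR 3.66. The part of low signal in the changes and interactions of MMP13, MMP1 and CXCL8 was not tested.

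Most other early genes of the ERK response fell with BRAF and MEK inhibition on the deposited scale, and fewer were lower on the quantile scale. Of 11 measured, 1 rose and 10 fell with DTE (median -1.04, quantile -0.30), 10 fell with DT (median -1.17, quantile -0.35), and 2 rose and 4 fell with E (median -0.06, quantile 0.13). EGR1, an ERK-induced zinc finger factor, fell by 1.95 ± 0.16 with DTE and by 1.99 ± 0.16 with DT, but rose with E (0.60 ± 0.16, adjusted p = 0.0063). KLF6 fell by 2.61 ± 0.13 with DTE and by 3.05 ± 0.13 with DT, and was higher with DTE than with DT (0.45 ± 0.13, adjusted p = 0.0073, quantile 0.91). IER3 fell by 1.78 ± 0.12 with DTE, and it fell by 2.96 ± 0.12 with DT, with DTE above DT by 1.18 ± 0.12 (quantile 1.55). Its dimmer row gave -1.40 with DTE, -1.64 with DT and 0.24 for DTE minus DT.

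Most partners of cyclin D1 fell too. Of 15 measured genes of the cyclin D, CDK and RB axis, CCND1 included, 14 fell and 1 rose with DTE (median -2.12, quantile -0.87 with 13 lower). All 15 fell with DT (median -1.56, quantile -0.81 with 11 lower), and 11 fell and 1 rose with E (median -0.88, quantile -0.46 with 11 lower). CDK4 fell by 2.10 ± 0.12 with DTE (quantile -0.85), by 1.07 ± 0.12 with DT (quantile -0.29) and by 1.39 ± 0.12 with E (quantile -1.04). CDK6 fell by 2.58 ± 0.11 with DTE (quantile -1.43), by 1.61 ± 0.11 with DT (quantile -0.90) and by 1.06 ± 0.11 with E (quantile -0.77). The E2F factors E2F1 (-2.70 ± 0.16, quantile -1.70) and E2F3 (-2.90 ± 0.10, quantile -2.08) fell with DTE, and E2F1 fell by 2.31 ± 0.16 with DT and by 0.84 ± 0.16 with E.

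Of the other D-type cyclins, CCND2 in its brighter row rose with DTE and E but fell with DT. CCND3 fell with DTE and DT. CCND2 rose with DTE (0.74 ± 0.16, adjusted p = 0.00049, quantile 1.43) and with E (0.74 ± 0.16, adjusted p = 0.0011, quantile 0.78), and was higher with DTE than with DT by 1.38 ± 0.16 (quantile 1.74). With DT the brighter row fell by 0.64 ± 0.16 (adjusted p = 0.0024), and the quantile value of -0.31 did not pass (adjusted p = 0.13). The gene has 2 rows, however, and the dimmer one gave -0.18 with DTE, -0.15 with DT, 0.02 with E and -0.02 for DTE minus DT, so the rows disagree. The mean of both rows changed by 0.28 with DTE and did not pass (adjusted p = 0.061). CCND3 fell by 0.99 ± 0.10 with DTE (quantile -0.39) and by 0.81 ± 0.10 with DT (quantile -0.33). With E, CCND3 differed by -0.004 ± 0.10 (adjusted p = 0.98, quantile 0.14). Of 7 listed CDK inhibitors, 1 had a named row, CDKN2A, which fell by 1.19 ± 0.14 with DTE, by 0.83 ± 0.14 with DT and by 0.60 ± 0.14 with E.

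Genes of S phase entry, which lie downstream of cyclin D1 and E2F, were lower in every treatment group. All 11 measured fell with DTE (median -2.15, quantile -1.15 with 11 lower), with DT (median -1.72, quantile -0.97 with 11 lower) and with E (median -1.05, quantile -0.63 with 8 lower). RRM2, a subunit of ribonucleotide reductase, fell by 2.14 ± 0.11 with DTE and by 2.60 ± 0.11 with DT. CDC25A, a phosphatase that activates CDK2, fell by 2.40 ± 0.16 with DTE, by 2.09 ± 0.16 with DT, and with E it fell by 1.49 ± 0.16. Its interaction was 1.18 ± 0.23 (adjusted p = 0.0035, quantile 0.94). CCNE1, which encodes cyclin E1, fell by 2.83 ± 0.12 with DTE (quantile -1.73).

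Within the MAX and MLX network, MYC had the lowest change with DT but not with DTE. Of 10 measured genes, 9 fell with DTE (median -1.35, quantile -0.21 with 3 higher and 5 lower), 8 fell with DT (median -0.68, quantile -0.05), and 1 rose and 7 fell with E (median -0.51, quantile -0.16). Of all named genes, 74.3% fell with DTE and 66.2% with DT, so the counts for these are near the background. MXD3, a MAX partner that opposes MYC, fell by 2.09 ± 0.12 with DTE, by 1.38 ± 0.12 with DT and by 0.94 ± 0.12 with E in its brighter row, and the dimmer one gave -0.93 with DTE, -0.89 with DT and -0.57 with E. MLX, the partner of the MondoA-type factors, fell by 1.97 ± 0.11 with DTE.

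Genes widely used as MYC targets fell with each treatment, including entinostat, with which MYC itself did not fall. Of 18 measured, 17 fell and 1 rose with DTE (median -1.84, quantile -0.79 with 16 lower), 17 fell and 1 rose with DT (median -1.33, quantile -0.58 with 16 lower), and 16 fell and 1 rose with E (median -0.82, quantile -0.43 with 13 lower). NOP16, a nucleolar protein, fell by 2.99 ± 0.11 with DTE, by 1.58 ± 0.11 with DT and by 1.62 ± 0.11 with E. MRTO4, a factor of large ribosomal subunit assembly, fell by 2.54 ± 0.14 with DTE and by 1.84 ± 0.14 with DT.

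The polyamine enzymes were the exceptions in that list, each in only some of the comparisons with DMSO. ODC1, ornithine decarboxylase, rose with DTE (0.47 ± 0.10, adjusted p = 0.00059, quantile 1.65) and with E (0.97 ± 0.10, adjusted p = 1.3e-06, quantile 1.37). With DT it fell by 0.39 ± 0.10 (adjusted p = 0.0034), where the quantile value was 0.43 higher. SRM, spermidine synthase, rose with DT (0.74 ± 0.11, adjusted p = 2.5e-05, quantile 1.45). It fell with DTE (-1.50 ± 0.11, quantile -0.48) and E (-1.46 ± 0.11, quantile -1.21), and the difference of DTE minus DT was -2.24 ± 0.11 (quantile -1.93).

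Of 14 listed genes for the turnover of the cyclin D1, MYC and JUN proteins, 7 were measured. All 7 fell with DTE (median -1.13), 5 with DT (median -0.77) and 6 with E (median -0.40), where 74.3% of all named genes fell with DTE, 66.2% with DT and 37.2% with E. On the quantile scale 1 was higher and 1 lower with DTE (median -0.06), 1 higher and 1 lower with DT (median -0.03), and 3 lower with E (median -0.02).

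**Figure D5:**
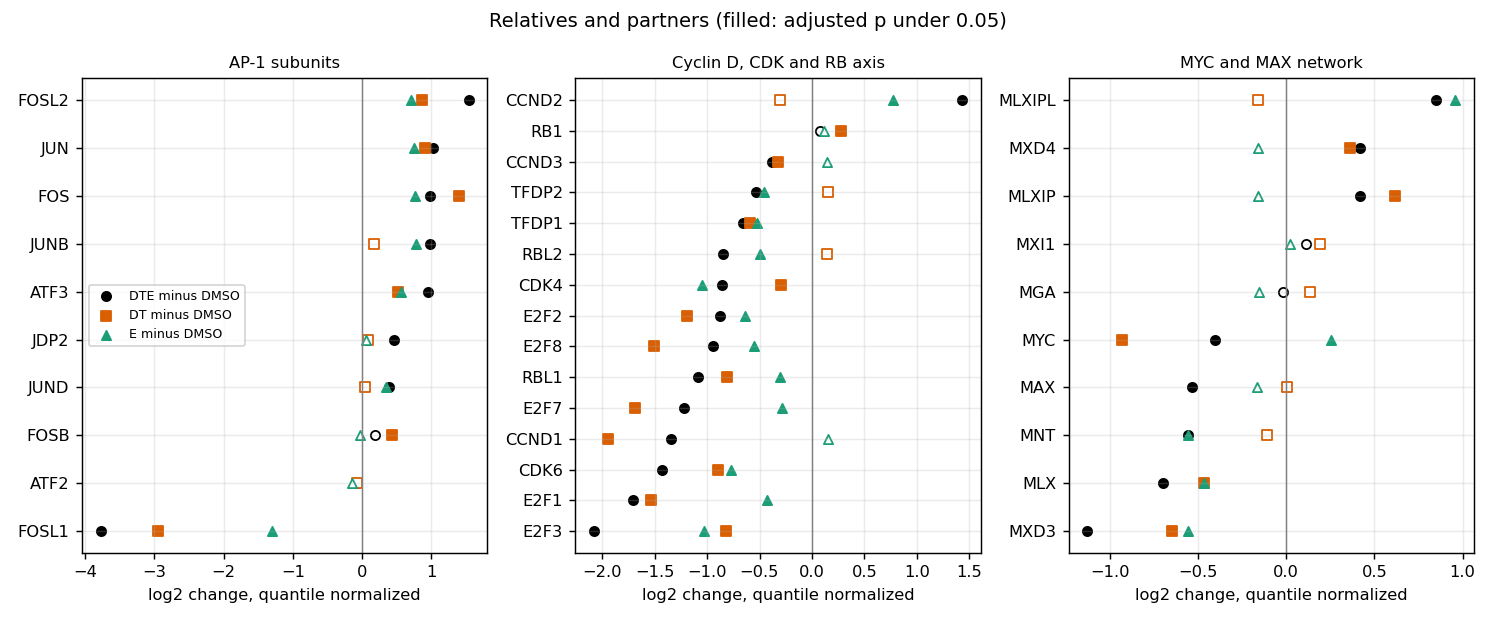
Change against DMSO after quantile normalization (log2, horizontal axis) of the measured AP-1 subunits, the cyclin D, CDK and RB axis, and the MYC and MAX network, for DTE (circles), DT (squares) and E (triangles), with filled symbols at an adjusted p under 0.05. FOSL1 (-3.78 with DTE) is the one AP-1 subunit well below 0, and FOSL2 (1.54) is at the top.

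The genes with the most similar pattern were found by the root mean square difference between log2 values over the 12 arrays, each gene centred on its own mean. Nearest to CCND1 were CDC6, a replication licensing factor (0.19), AQP1, a water channel (0.20), CHSY1 (0.20), DPYSL2 (0.20) and DSCC1 (0.20), with 149 of 14598 genes within 0.5. Nearest to MYC were YEATS2 (0.10), USP31 (0.11), ATP13A2 (0.11), CD276 (0.12) and LRIG1 (0.12), with 3750 genes within 0.5. FOSL1 had few such neighbours: MCM10, a replication factor (0.38), DTL (0.39), GNE (0.45), EFNA5 (0.48) and DUSP4, an ERK phosphatase (0.50), were the only 5 genes within 0.5. JUN was nearest to CCL2, a chemokine (0.10), LINC00965 (0.11), ARID5B (0.11), TMCO2 (0.11) and KDM1B, a histone demethylase (0.11). Because the JUN pattern is nearly flat on the deposited scale, 11125 genes lay within 0.5 of it. TMCO2 was dim, with group means of 3.70 to 4.30 (log2), and ranked 2068 for likeness to JUN after quantile normalization.

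Of the pairs among the 4 genes, CCND1 and MYC were the closest by this measure, and FOSL1 and JUN were the furthest apart. CCND1 and MYC differed by 0.53, FOSL1 and CCND1 by 0.79, and FOSL1 and JUN by 1.73. MYC ranked 186 of 14598 for likeness to CCND1, and FOSL1 ranked 1123.

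The named genes on either side of CCND1 on its chromosome, MYEOV and LTO1, were picked after their values were seen, and their patterns differ. MYEOV fell by 2.34 with DTE (adjusted p = 8.6e-10, quantile -1.71) and by 2.48 with DT (adjusted p = 1.9e-09, quantile -1.96), and differed by 0.14 with E (adjusted p = 0.48, quantile 0.38). LTO1 fell by 1.02 with DTE (adjusted p = 1.4e-06, quantile -0.49), by 0.41 with DT (adjusted p = 0.009, quantile 0.038) and by 0.52 with E (adjusted p = 0.0024, quantile -0.40). Its call with DT was lost without DT array 2 (-0.30, adjusted p = 0.059).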

How the data were processed

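Per the submitters' processing notes, the authors made the deposited probe set intensity values with RMA in Transcriptome Analysis Console. The values are on a linear scale, with no statement of scaling between arrays, genome build or annotation in the sources used here. Per the labels, ERCC control RNA went into the lysate, and it was not used here. The table has 29592 rows, of which 14783 were linked to 1 gene symbol, 0 to several and 14809 to none. Symbols were updated by Entrez identifier to RefSeq (GRCh38.p14, names only), giving 14599 genes, with the brightest row used for the 169 genes that had more than 1.

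The log2 of each deposited intensity was modelled in R 4.3.3 by limma 3.58.1, using lmFit and eBayes, over all 12 arrays with 1 mean per group, 8 residual and 7.68 prior degrees of freedom. Tests covered 7 comparisons, 6 pairs of groups and the interaction, with Benjamini-Hochberg adjustment over 14599 genes and a threshold of 0.05. The number of arrays limits the precision. The fit was tested on simulated data. Genes named beside the 4 were up to 4 passing genes of largest change and 2 non-passing genes per list and comparison, a set of relatives, and the 5 most similar genes. The genes, lists and tests were chosen with earlier results of these data known. Alternatives were 3 other scalings, a filter on the dimmest 40% of genes, trend and robust variance, other uses of rows, only the arrays compared, a replicate block and each array left out. Figures used matplotlib 3.10.9 in Python 3.11.15.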

Additional observations from a re-analysis of the deposited data

Results flagged for a closer look

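For 2 of the 4 genes the effect of entinostat differed with and without BRAF and MEK inhibitors, by the limma interaction test on the deposited scale. Of all 14599 named genes, 8% passed that test. JUN had an interaction of -0.75 (adjusted p = 0.0038). On the deposited scale entinostat changed it by -0.37 in the presence of the inhibitors (DTE minus DT) and by 0.38 in their absence (E minus DMSO). There the 3 E arrays lay above the 3 DMSO arrays while the 3 DTE arrays lay below the 3 DT arrays. On the quantile scale the interaction passed (-0.64, adjusted p = 0.0095), but the opposite signs were not seen. DTE minus DT was 0.11 there, with overlapping arrays (adjusted p = 0.42), and E minus DMSO was 0.75. FOSL1 had an interaction of 0.78 (adjusted p = 0.033), with changes of -0.92 and -1.70, and it did not pass on the quantile scale (0.48, adjusted p = 0.29). The deposited-scale call for FOSL1 was lost in 7 of the 12 fits that each left out 1 array.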

How the results depend on the processing

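Most changes came with the scaling. Each of the 4 genes was followed through 7 comparisons, 28 results in all, and 17 kept direction and side of the threshold after quantile normalization, 19 after subtraction of array medians and 18 after cyclic loess. The falls of CCND1, MYC and FOSL1 with DTE and DT against DMSO and against E kept both under all 3. After quantile normalization, subtraction of medians and cyclic loess in that order, JUN was 1.02, 0.32 and 1.03 higher with DTE than with DMSO, 0.91, 0.56 and 0.88 higher with DT than with DMSO, and 0.16, 0.085 and 0.069 higher with DT than with E. Its DTE minus DT was 0.11, -0.24 and 0.15 and its DTE minus E 0.27, -0.15 and 0.22. Of these, the JUN values against DMSO passed and the others did not. For E minus DMSO, MYC was 0.26, 0.012 and 0.29, and CCND1 was 0.15 with quantile and 0.23 with loess. For DTE minus DT, CCND1 was 0.60, 0.24 and 0.62 and MYC 0.53, 0.32 and 0.60, all now passing. The CCND1 interaction passed at 0.44 with quantile and 0.39 with loess, and the FOSL1 interaction no longer passed at 0.48 with quantile and 0.81 with medians (adjusted p = 0.053). In the same order, with DTE against DMSO, FOS was 0.98, 0.55 and 1.13 higher and JUNB 0.97, 0.27 and 0.98 higher. LTO1 with DT was 0.038, 0.031 and 0.016 above DMSO and did not pass. The difference of CCND1 and MYC for DTE minus DT was 0.070 with quantile. The cause was not tested.

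Apart from scaling and from leaving out arrays, the settings changed a call of JUN alone among the 4 genes. DT minus E (-0.25) passed without the dimmest genes and with trend and robust variance. DTE minus DMSO (-0.24) no longer passed over all rows of the table (adjusted p = 0.054) or with only the arrays compared (adjusted p = 0.064). The replicate block left all 28 results as they were (JUN interaction -0.75, FOSL1 interaction 0.78), and JUNB with DTE (-0.30) lost its call under it (adjusted p = 0.054), over all rows (adjusted p = 0.051) and with only the arrays compared (adjusted p = 0.06). Whether same-numbered arrays were paired could not be settled from these values. The r between their deviations was -0.103 to 0.106, with 1 of 18 pairs over 0.1. Its median was 0.0234, against a median of -0.00649 for arrays of other numbers. For 8 of 12 arrays the highest r was with an array of the same number. Leaving out 1 array at a time gave JUN -0.27 to -0.20 for DTE minus DMSO (lost in 6 of 12 fits) and -0.34 to -0.17 for DT minus E, which passed without E array 2. It gave FOSL1 0.65 to 0.94 for the interaction (lost in 7 of 12, adjusted p 0.0076 to 0.093) and FOS -0.12 to 0.10 for DTE minus DMSO, above 0 without DTE array 1 (0.031) or 3 (0.033) or DMSO array 3 (0.098).

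The number of genes passing changed by over 1.5 times as follows. It was 4214 with quantile, 4486 with loess and 16911 over all rows for DT minus DMSO (10094 as reported), and 6810, 6786 and 20638 for DTE minus DMSO (11479). For DTE minus E (10696) it was 3352 with quantile, 6214 with medians, 3085 with loess and 18241 over all rows. For the interaction (1168) it was 1830 with quantile and 1948 with loess. Over all rows it was 10971 for E minus DMSO (6937), 11552 for DTE minus DT (7200) and 11135 for DT minus E (6813). More rows were tested there. Of the 5 genes most like CCND1 and MYC, 3 each stayed in the nearest 5 after quantile normalization.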
